A study of Arabidopsis thaliana with 12 samples.

Results

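The genes described here encode the most abundant ribosomal protein transcripts of *Arabidopsis thaliana* leaves. They were chosen from the deposited table by 2 conditions. The annotation had to contain the words ribosomal protein, and the transcript had to average at least 100 TPM over the 6 libraries of the wild type (WT), with 1 transcript kept per locus, the one with the highest WT mean. TPM, the unit of level used here, is scaled by transcript length and sums to the same total in every library. Of 366 loci so annotated, among 33326 loci in all, 184 met the limit and are called members below. The level in the WT therefore chose the members and is given as a description. Differences between *bou-2* and WT and between day and night were not part of the choice, but they share the WT libraries with it.

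RNA-Seq was run on leaves of *bou-2* at day, the WT at day, *bou-2* at night and the WT at night, with 3 libraries in each group and 12 in all. The *bou-2* plants are a single T-DNA line in Col-0 with the insertion in an exon of *BOU*, a gene for a mitochondrial carrier needed for full glycine decarboxylase activity in photorespiration, and the WT is Col-0. All plants were grown for 35 days at 3000 ppm CO2 in a 12 h light period and were moved to ambient CO2 for 24 h before harvest, so that the WT and the mutant share the shift to photorespiratory conditions. The labels place the day harvest 2 h into the light and the night harvest 2 h before its onset, and they name mature leaves, whereas the study's methods give other times around light onset and whole rosettes, and one label field names the end of the day for the day samples. The labels number the libraries of a group without naming the plants they came from, and each p-value covers only the spread among these libraries.

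The cytosolic ribosome of a plant cell is built from a large (60S) and a small (40S) subunit, whose proteins are named L or S, with the acidic P proteins forming the stalk of the large subunit that recruits elongation factors. Almost every one of these proteins is encoded by a small family of nuclear paralogs, and the subunits are assembled in the nucleolus with the help of many assembly factors. Chloroplasts keep ribosomes of the bacterial type (50S and 30S), which translate the plastid genome, and most of their proteins are also encoded in the nucleus. In growing and photosynthetic leaves both sets rank among the most abundant mRNAs.

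By their annotation, RefSeq synonyms and protein family, 142 members encode proteins of the cytosolic ribosome, 82 in the large and 60 in the small subunit. A further 34 encode proteins of the plastid ribosome, 22 in the large and 12 in the small subunit, and 8 belong to neither group. The compartment is stated by the annotation or a RefSeq synonym for 21 cytosolic and 20 plastid members and was assigned here from the protein family for the other 121 and 14. The 8 others carry the words only as part of a domain name or have an uncertain location. They are SSR16 (AT4G34620), the elongation factor eEF2 (AT1G56070), 2 subunits of eEF1B (AT1G30230 and AT5G19510), a ClpS-like protease adaptor (AT1G68660), 2 SNU13-like RNA-binding proteins (AT5G20160 and AT4G12600) and an L18ae-like protein (AT3G14595).

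Estimated counts summed to 15911356 to 33046562 per library, with *bou-2* at day the shallowest group (15911356 to 20952513) and the WT at day the deepest (26561237 to 33046562). The lowest estimated count of any member in any library was 74, and 183 members had at least 100 in every library. The T-DNA line had 80.5 ± 0.270 TPM of *BOU* at day, against 180.2 ± 46.3 TPM in the WT, and 65.9 ± 0.958 TPM at night, against 163 ± 11.4 TPM in the WT (SD, n = 3 each). Of 20458 genes tested, each with the edgeR quasi-likelihood test and Benjamini-Hochberg adjustment, 3021 rose and 2627 fell in *bou-2* at day compared to the WT, while 3022 rose and 2499 fell at night. The transcript AT2G01021, which resembles rRNA, varied from 6924 to 69527 TPM over the libraries and takes part in the sum that each TPM is scaled to. The WT libraries at day differed from each other more than those of any other group, with a chi-square per transcript of 56.4 to 90.4, against 9.75 to 26.0 in the other groups. Root markers (*RHD6*, *EXP7*, *COBL9*, *PRP3*) summed to at most 0.0402 TPM in any library. The leaf mesophyll markers *RBCS1A*, *LHCB1.1* and *CA1* together held 16655 to 20288 TPM in *bou-2* and 27898 to 37383 TPM in the WT at day. At night they held 19427 to 20763 TPM in *bou-2* and 29857 to 32098 TPM in the WT. All 3 were lower in *bou-2* at day and 2 of 3 at night.

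In the WT, the members spanned a range of about one order of magnitude in TPM. The highest mean belonged to a gene for L41 (AT2G40205), a very short peptide of the large subunit, with 1335 TPM, followed by SSR16 with 1149.6 TPM and the S8 gene AT5G20290 with 936 TPM. The L37a gene AT3G60245 (869 TPM), the plastid-specific protein PSRP5 (AT3G56910, 849 TPM), S16 (AT5G18380, 779 TPM), L19 (AT1G02780, 769 TPM) and L14 (AT4G27090, 756 TPM) completed the highest 8. The median WT level was 343 TPM over the cytosolic and 463 TPM over the plastid members. Just inside the limit stood PSRP1-like AT5G24490 with 102 TPM, S15a AT3G46040 with 107 TPM and L10a AT5G22440 with 110.3 TPM. Just outside stood S14 AT3G52580 (annotated as S11 family, like the S14 members) with 96.2 TPM, L18ae-like AT1G17080 with 94.6 TPM and S29 AT3G43980 with 93.2 TPM.

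Sequences upstream of the members were read from the TAIR10.1 RefSeq genome, in a window of 300 bases that ran from 250 before to 50 after each annotated gene start. Such promoters in plants are known for site II elements (TGGGCC or TGGGCT, on either strand) and for telo-boxes (AAACCCTA, on either strand), short motifs that recur in genes of the translation machinery. Of the 142 cytosolic members, 116 (81.7%) held a site II element and 75 (52.8%) a telo-box, and 65 held both. Of the 33 plastid members with a nuclear window, 16 (48.5%) held site II and 5 (15.2%) a telo-box. Over all 27443 protein-coding windows the shares were 21.7% and 6.22%, and over the 1544 loci with a mean WT TPM of at least 100 they were 36.7% and 9.46%. A match is a run of letters and not a bound site. The windows of 30 bases below are written from 5′ to 3′ along the gene, with motifs in capitals. GGCCCA and AGCCCA are site II on the opposite strand. The windows come from members with some of the largest changes described below and from L14 AT4G27090, whose window holds both motifs. The pair of *RPS6* genes, whose fold changes had opposite signs at day only, is added. Only members with a match were shown, so the windows do not tell how common a match is among the changed members.
Cytosolic L17 AT1G27400, chr1:9515068-9515097 (+ strand): gataagtGGCCCAgaaGGCCCAtatgaaca
Cytosolic L24 AT3G53020, chr3:19662102-19662131 (- strand): tataTGGGCTaataaaattaTGGGCCtatt
Cytosolic L14 AT2G20450, chr2:8813781-8813810 (+ strand): aaTGGGCCtttaaaattgttagTGGGCTtc
Cytosolic L14 AT4G27090, chr4:13595289-13595318 (- strand): gataGGCCCAaaccacaAAACCCTAgaatg
Cytosolic S6 AT4G31700, chr4:15347791-15347820 (- strand): cgGGCCCAtaatcgcagaaaacGGCCCAta
Cytosolic S6 AT5G10360, chr5:3260286-3260315 (- strand): ttaTGGGCCCAtaaaatgtaGGCCCAattc
Plastid L15 AT3G25920, chr3:9492677-9492706 (- strand): tttgctgtgaaaGGCCCAataaacaattaa
Plastid L34 AT1G29070, chr1:10149709-10149738 (+ strand): tatTGGGCTtttatagtcttaTGGGCTgaa

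As a sum, the cytosolic ribosomal protein transcripts were more abundant in *bou-2* than in the WT at both times, and the plastid ones were less abundant. The 142 cytosolic members summed to 74138, 69890.3 and 70264 TPM in *bou-2* at day, against 52483, 52382 and 49808 TPM in the WT. At night they summed to 73026, 72838 and 76827 TPM in *bou-2*, against 55932, 55444 and 45008 TPM in the WT. The groups did not overlap at either time, and the third WT library at night was the lowest of all 12. As a share of all TPM, cytosolic members held 7.14 ± 0.235% in *bou-2* and 5.16 ± 0.152% in the WT at day, and 7.42 ± 0.225% in *bou-2* and 5.21 ± 0.617% in the WT at night (SD, n = 3 each). The ratio of *bou-2* over WT was 1.39 ± 0.0612 at day and 1.42 ± 0.174 at night (± SD propagated from the libraries). These are ratios of TPM. On the scale of log2(TPM + 0.1), the median log2 fold change of all genes lay 0.11 higher than in the edgeR fit at day and 0.11 at night. In bulk leaves, fewer cells of a type and less RNA per cell cannot be told apart.

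The 34 plastid members summed to 11473, 11367 and 10661 TPM in *bou-2* at day, against 14341, 11779 and 16857 TPM in the WT. At night they summed to 11527, 11690.1 and 10857 TPM in *bou-2*, against 15766, 17055 and 14587 TPM in the WT. At day the second WT library came close to the *bou-2* libraries without overlapping them, and the WT libraries spread more widely than those of *bou-2*. The ratio of *bou-2* over WT was 0.780 ± 0.142 at day and 0.719 ± 0.0627 at night, on the same TPM scale and with the same shift of all genes. For each TPM of cytosolic members, *bou-2* held 0.156 ± 0.00564 TPM of plastid members at day, against 0.279 ± 0.0570 TPM in the WT. At night the values were 0.153 ± 0.0104 TPM in *bou-2*, against 0.305 ± 0.0213 TPM in the WT.

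**Figure D1:**
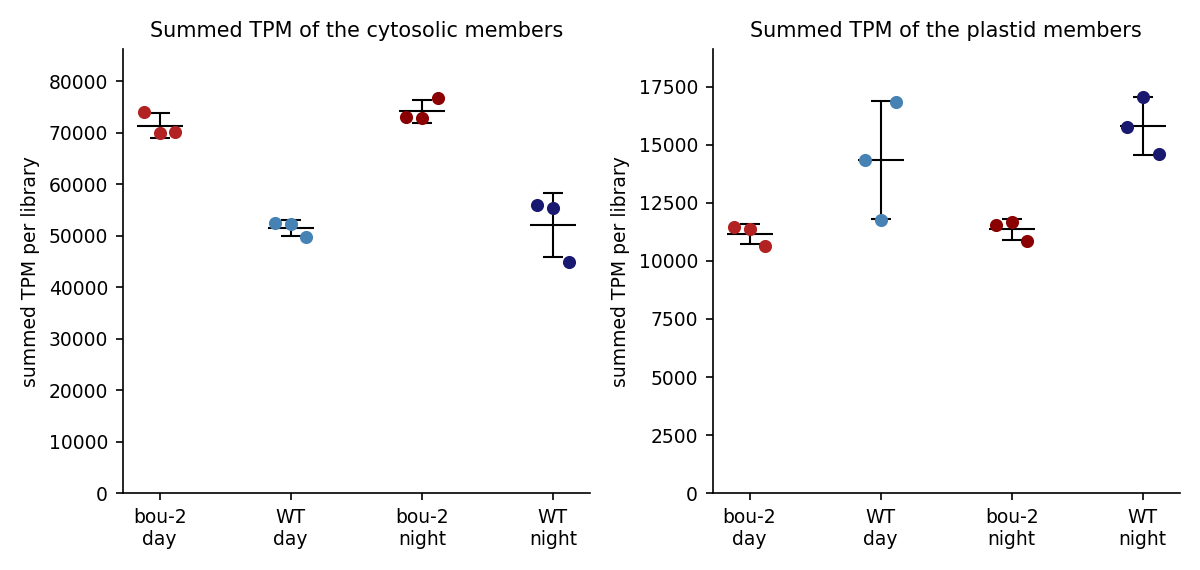
Summed TPM per library (y axis) of the cytosolic members (left) and the plastid members (right) in the 4 groups (x axis). Each point is 1 library, and the wide bar and whiskers are the mean and SD of 3 libraries. Cytosolic sums ran from 69890.3 to 76827 TPM in *bou-2* and from 45008 to 55932 TPM in the WT, and plastid sums lay lower in *bou-2* than in the WT at both times.

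Gene by gene, no cytosolic member was lower in *bou-2* at an adjusted p under 0.05 at either time. At day 71 of 142 were higher, with a median log2 fold change of 0.39 over the 142, and at night 84 were higher, with a median of 0.43 (edgeR quasi-likelihood test, adjusted over all transcripts tested). Of all genes tested, 14.8% were called higher and 12.8% lower at day, while at night 14.8% were higher and 12.2% lower, with medians of -0.04 and 0.02. Among the 1563 genes that reach a mean WT TPM of 100, 19.5% were called higher and 22.9% lower at day, while at night 17.0% were higher and 26.2% lower. The *bou-2* libraries lay above the WT libraries in TPM for 118 cytosolic members at day and for all 142 at night, while this held for 24.5% of all genes at day and 37.7% at night. Of the 1563 genes that reach a mean WT TPM of 100, it held for 511 at day and 589 at night. The fitted fold change was positive for 138 of 142 at day and for all 142 at night. Of the 82 genes of the large subunit, 47 were higher at day and 48 at night, and of the 60 of the small subunit 24 at day and 36 at night. The 7 genes for stalk proteins P0 to P3 counted 2 higher at day and 3 at night. Of the 21 cytosolic members whose compartment is stated, 11 were higher at day and 11 at night. When the limit of 100 TPM was set on the *bou-2* libraries in place of the WT libraries, 85 of all such loci rose and 19 fell at day, against 75 and 19 of the 184 members. On the TPM scale (limma, log2(TPM + 0.1)) the median of all genes moved by 0.11 at day and 0.11 at night, and 114 and 131 cytosolic members were higher. With only the 6 libraries compared in the fit, 20 cytosolic members were higher at day and 92 at night. The counts depended on single libraries. At day the cytosolic counts were 34 without the second, 47 without the first *bou-2* library and 45 without the first WT library. At night they were 32 without the third, 45 without the first and 51 without the second *bou-2* library and 47 without the third WT library.

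The largest rises at day among members with separate libraries included S12, L17, L24 and L6. The L17 gene AT1G27400, a protein of the large subunit, had 346, 343 and 360.4 TPM in *bou-2*, against 197, 198 and 198 TPM in the WT at day, and 346, 340.4 and 365 TPM in *bou-2*, against 234, 226 and 179 TPM in the WT at night. Its log2 fold changes were 0.71 ± 0.12 (SE, adjusted p = 0.00183, edgeR) at day and 0.61 ± 0.12 (adjusted p = 0.00417) at night, with each *bou-2* library above each WT library. *SHORT VALVE1* (*STV1*, AT3G53020), the L24 gene named for its role in gynoecium patterning, had 649, 645 and 639.8 TPM in *bou-2*, against 352, 400.2 and 361 TPM in the WT at day. At night it had 647, 613 and 666 TPM in *bou-2*, against 426, 437 and 360.0 TPM in the WT. It rose by 0.69 ± 0.11 on the log2 scale at day (adjusted p = 0.00207, edgeR) and by 0.54 ± 0.11 at night (adjusted p = 0.00682), and its *bou-2* libraries were tightly grouped. The L6 gene AT1G18540 had 769, 752 and 769 TPM in *bou-2*, against 429.9, 474 and 434 TPM in the WT at day, a rise of 0.67 ± 0.12 on the log2 scale (adjusted p = 0.00302, edgeR), and of 0.60 ± 0.12 at night (adjusted p = 0.00521). The S12 gene AT2G32060 had 153, 190.1 and 182 TPM in *bou-2*, against 70.3, 106 and 96.6 TPM in the WT at day, a log2 fold change of 0.82 ± 0.22 (adjusted p = 0.0201, edgeR). At night it had 235, 233 and 284 TPM in *bou-2*, against 179, 176 and 118 TPM in the WT, and its log2 fold change of 0.55 ± 0.22 was not called (adjusted p = 0.0922).

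The members that joined the largest rises at night had WT means from 110.3 to 233 TPM, below the cytosolic median. The L14 gene AT2G20450 had 216, 206 and 233 TPM in *bou-2*, against 114, 126 and 88.6 TPM in the WT, a log2 fold change of 0.88 ± 0.13 (adjusted p = 0.00121, edgeR), and 0.48 ± 0.13 at day (adjusted p = 0.0245). Its abundant paralog AT4G27090, among the highest members in the WT, had 948, 953 and 1025 TPM in *bou-2*, against 848, 820.0 and 691 TPM in the WT and a log2 fold change of 0.19 ± 0.10 (adjusted p = 0.210). The 2 genes together hold the whole L14 family among the members, with 87.0% of its WT TPM in AT4G27090. The L10a gene AT5G22440 had 180.2, 163 and 184 TPM in *bou-2*, against 101, 105 and 78.7 TPM in the WT (0.78 ± 0.15, adjusted p = 0.00413, edgeR). S15 (AT5G09510) rose by 0.70 ± 0.13 (adjusted p = 0.00416) and S28 (AT5G64140) by 0.70 ± 0.14 (adjusted p = 0.00609) on the log2 scale. At day L10a (adjusted p = 0.109) and S28 (adjusted p = 0.104) were not called in the edgeR test, and S15 was (adjusted p = 0.0160).

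The stalk of the large subunit is built on P0, with pairs of P1 and P2 and, in plants, P3. The P0 gene AT3G09200 had 867, 769 and 782 TPM in *bou-2*, against 530.0, 579 and 544 TPM in the WT at day (0.45 ± 0.12, adjusted p = 0.0178, edgeR) and 0.39 ± 0.12 at night (adjusted p = 0.0338). The P2 gene AT2G27710 was higher both at day (0.49 ± 0.14, adjusted p = 0.0259) and at night (0.46 ± 0.14, adjusted p = 0.0347), and the P3 gene AT5G57290 at night (0.46 ± 0.15, adjusted p = 0.0422, edgeR). The second P2 gene, AT2G27720, and the 3 genes for P1 were not called at either time, with log2 fold changes from 0.03 to 0.33 at day and from 0.09 to 0.26 at night. The stalk genes were described as a group and were not chosen for their values.

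**Figure D2:**
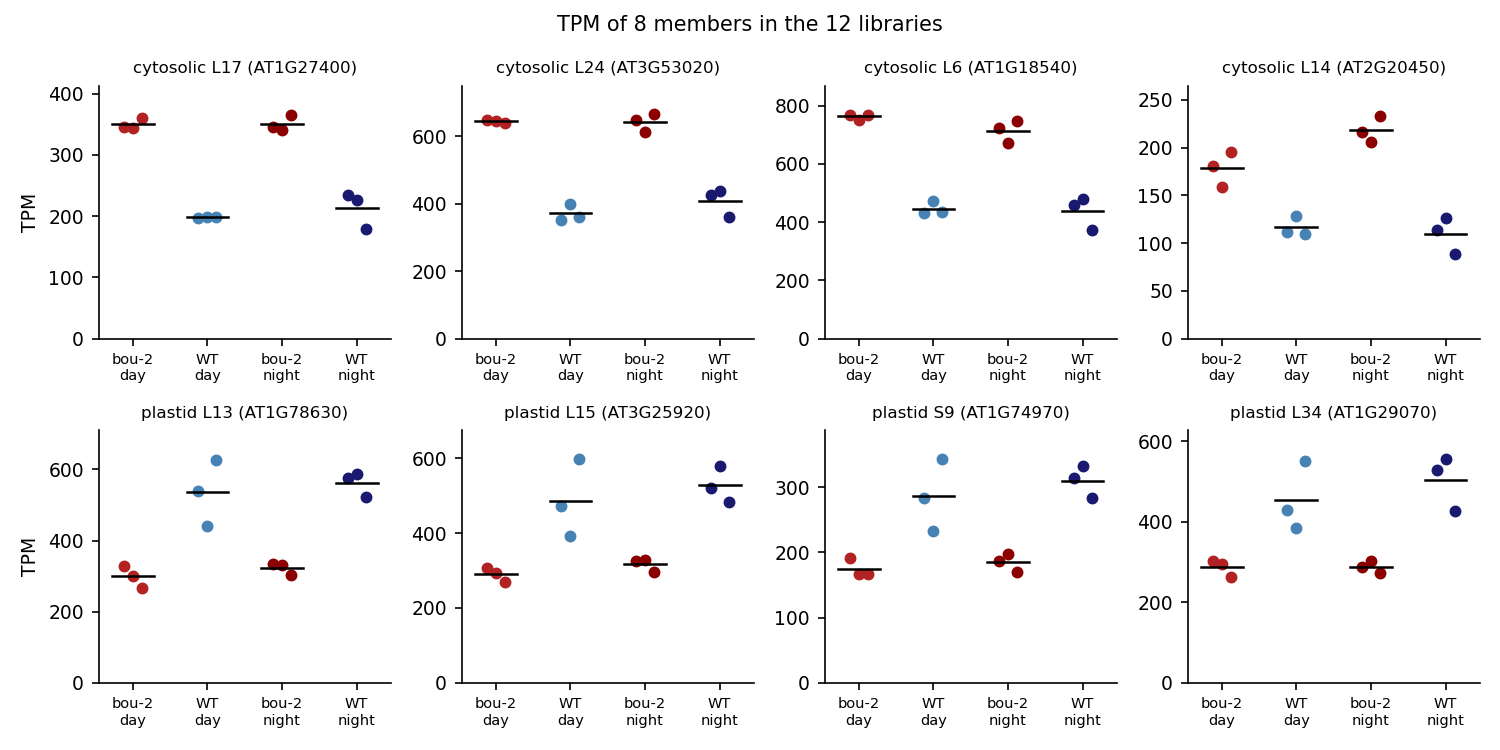
TPM (y axis) of 4 cytosolic members (top row) and 4 plastid members (bottom row) in the 4 groups (x axis). Each point is 1 library and the bar is the mean of 3. In all 8 panels the *bou-2* libraries were separate from the WT libraries of the same time, above them in the top row and below them in the bottom row.

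The 6 cytosolic genes among the 8 most abundant members had log2 fold changes from -0.03 to 0.53 at day. L19 (AT1G02780) had 1131, 1096 and 1074 TPM in *bou-2*, against 701, 786 and 765 TPM in the WT at day, a log2 fold change of 0.45 ± 0.12 (adjusted p = 0.0209, edgeR), and 0.34 ± 0.12 at night (adjusted p = 0.0647). L37a (AT3G60245) had 1253, 1159 and 1028 TPM in *bou-2*, against 765, 864 and 814 TPM in the WT at day, with separate libraries but no call (log2 fold change 0.37 ± 0.16, adjusted p = 0.126, edgeR). S8 (AT5G20290) had 1173, 1054 and 1051 TPM in *bou-2*, against 1178, 851 and 808 TPM in the WT at day, where the first WT library was the highest of the 6, and a log2 fold change of 0.12 ± 0.15 (adjusted p = 0.630). L41 (AT2G40205) had 2241, 2133 and 1096 TPM in *bou-2*, against 1095, 1509.8 and 1472 TPM in the WT at day. Its groups overlapped, with the third *bou-2* library low, and the fit called it (0.53 ± 0.17, adjusted p = 0.0423, edgeR), and its value is uncertain because reads can be shared with a near-identical copy. S16 (AT5G18380), which also has such a copy, had log2 fold changes of -0.03 ± 0.13 at day and 0.24 ± 0.13 at night, without a call. In all, 10 members have a copy of at least 95% coding identity among the annotated genes, and 137 have one of at least 80% protein identity.

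With counts summed over the paralogs among the members, the 142 cytosolic members formed 69 protein families, 40 of the large and 29 of the small subunit. Of these, 32 were higher in *bou-2* at day and 40 at night, none was lower, and every family had a positive log2 fold change at both times, from 0.03 to 0.67 at day and from 0.20 to 0.70 at night. L40, which is made as a fusion with ubiquitin, was among the highest at both times, with 0.67 ± 0.13 (adjusted p = 0.00539) at day and 0.68 ± 0.13 (adjusted p = 0.00451) at night in the edgeR test. S28 had 0.35 ± 0.14 (adjusted p = 0.103) at day and 0.70 ± 0.14 (adjusted p = 0.00613) at night. L10, encoded among the members by *SAC52* alone, had 0.58 ± 0.13 (adjusted p = 0.00936) at day and 0.54 ± 0.13 (adjusted p = 0.0127) at night. At the other end, the S16 family had 0.03 ± 0.13 (adjusted p = 0.895) at day, and the S8 family had 0.12 ± 0.15 (adjusted p = 0.624) at day and 0.23 ± 0.15 (adjusted p = 0.316) at night. P1 of the stalk had 0.18 ± 0.13 (adjusted p = 0.365) at day and 0.20 ± 0.13 (adjusted p = 0.335) at night. Copies that are not members, such as near-identical ones of the S2 gene AT1G59359 and the L41 gene AT3G56020, are outside these sums, so reads shared with them can still move a family's value.

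**Figure D3:**
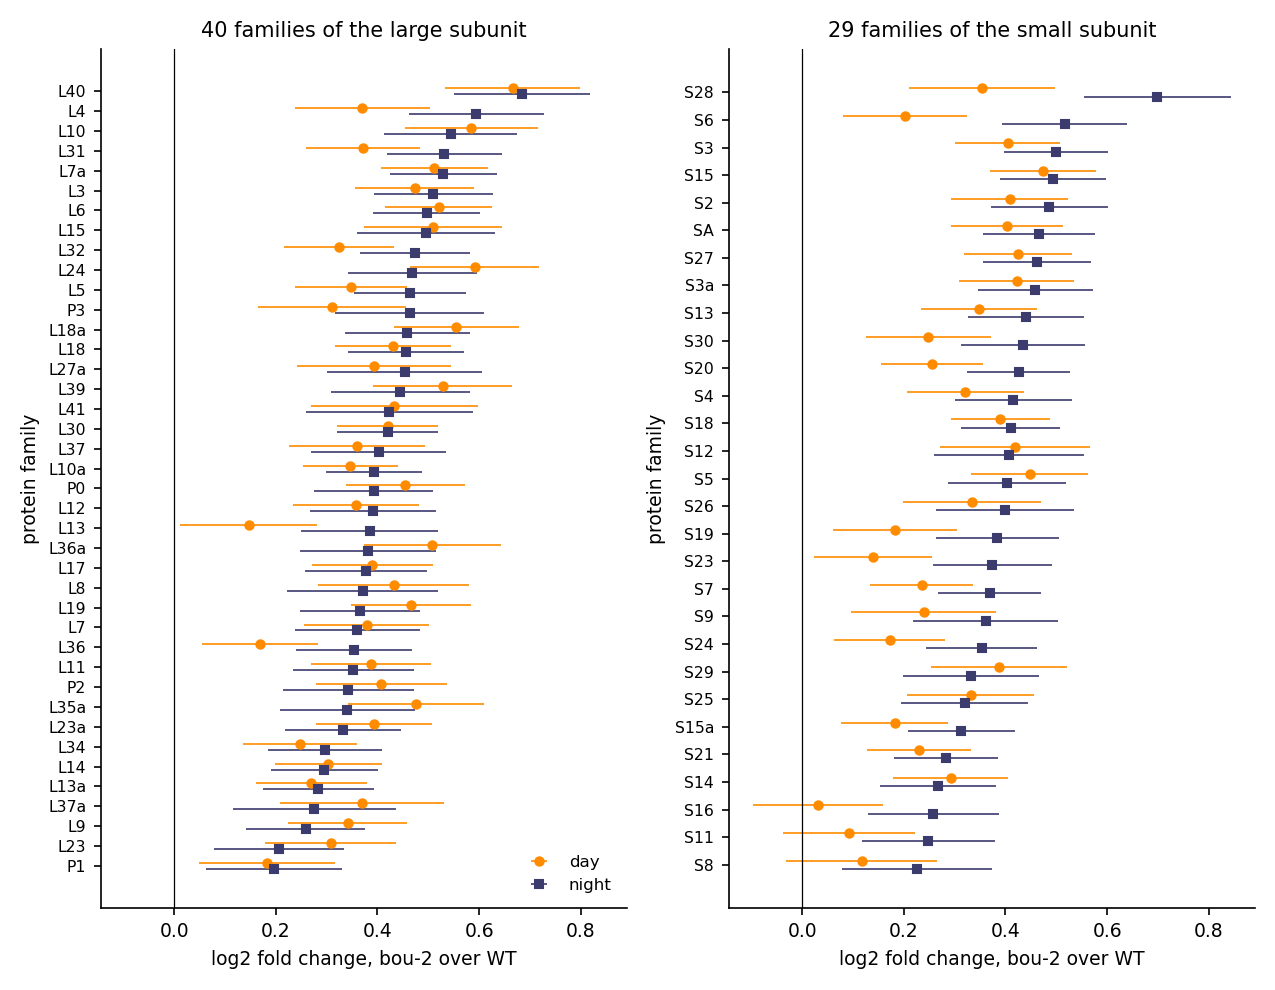
Log2 fold change of *bou-2* over WT (x axis) of each cytosolic ribosomal protein family (y axis), from counts summed over its members, for the large subunit (left) and the small subunit (right). Circles are day, squares are night and bars are the standard error of the edgeR fit. All 69 families lay to the right of 0 at both times, from 0.03 to 0.70.

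Several members are known from mutants with altered leaf shape or growth. *POINTED FIRST LEAF* (*PFL*, AT1G22780, S18) averaged 350.0 ± 17.4 TPM in *bou-2* and 229 ± 34.2 TPM in the WT at night (SD, n = 3 each), with a log2 fold change of 0.50 ± 0.12 (adjusted p = 0.0127, edgeR), and 0.36 ± 0.12 at day (adjusted p = 0.0519). *RPS13A* (AT4G00100), needed for normal leaf cell division, was higher both at day (0.45 ± 0.11, adjusted p = 0.0175) and at night (0.38 ± 0.11, adjusted p = 0.0339). Of the *PIGGYBACK* genes of leaf polarity, *PGY1* (AT2G27530, L10a) was higher both at day (0.35 ± 0.11, adjusted p = 0.0418, edgeR) and at night (0.47 ± 0.11, adjusted p = 0.0111), *ATL5* (AT3G25520, L5) at night (0.49 ± 0.12, adjusted p = 0.0161), and *PGY2* (AT1G33140, L9) had 0.30 ± 0.12 at day and 0.19 ± 0.12 at night without a call. *PGY2* has a near-identical copy, so its value is uncertain. *SAC52* (AT1G14320, L10), first found as a suppressor of a dwarf mutant, had 1168, 1119 and 1152 TPM in *bou-2*, against 642, 769 and 721 TPM in the WT at day and 1188, 1207 and 1270.1 TPM in *bou-2*, against 819, 851 and 658 TPM in the WT at night. It rose by 0.58 ± 0.13 on the log2 scale at day (adjusted p = 0.00949, edgeR) and by 0.54 ± 0.13 at night (adjusted p = 0.0129).

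*RPS5A* (AT3G11940), the S5 gene best known from dividing cells, and its paralog *RPS5B* (AT2G37270) were higher both at day (0.47 ± 0.12, adjusted p = 0.0143, and 0.39 ± 0.12, adjusted p = 0.0351, edgeR) and at night (0.37 ± 0.11, adjusted p = 0.0390, and 0.47 ± 0.12, adjusted p = 0.0146). Of the L23a pair, AT2G39460 was higher at day (0.39 ± 0.12, adjusted p = 0.0372, edgeR) and had 0.24 ± 0.12 at night without a call (adjusted p = 0.186). Its less abundant paralog AT3G55280 was higher both at day (0.38 ± 0.12, adjusted p = 0.0420) and at night (0.65 ± 0.12, adjusted p = 0.00365). The L3 gene AT1G43170, the protein next to the peptidyl transferase centre, had 0.47 ± 0.12 at day (adjusted p = 0.0152, edgeR) and 0.51 ± 0.12 at night (adjusted p = 0.0105).

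In 3 families, at day only, one paralog was called and another had a fold change of the opposite sign. S6 is the ribosomal protein phosphorylated by S6 kinase downstream of TOR, and its 2 genes encode proteins of 94.0% identity. *RPS6A* (AT4G31700) had 672, 609 and 629.5 TPM in *bou-2*, against 431, 439 and 397 TPM in the WT at day (0.49 ± 0.13, adjusted p = 0.0238, edgeR). *RPS6B* (AT5G10360) had 537, 469 and 496 TPM in *bou-2*, against 609, 467 and 406 TPM in the WT (-0.07 ± 0.13, adjusted p = 0.749), and the first WT library was the highest of the 6. At night both were higher, *RPS6A* by 0.63 ± 0.13 (adjusted p = 0.00743) and *RPS6B* by 0.41 ± 0.13 (adjusted p = 0.0401) on the log2 scale. S15a AT3G46040 had 169, 153 and 160.3 TPM in *bou-2*, against 106, 106 and 104 TPM in the WT at day (0.50 ± 0.09, adjusted p = 0.00351, edgeR), while AT1G07770, at 98.5% protein identity, had 327, 323 and 305 TPM in *bou-2*, against 305, 291 and 292 TPM in the WT (-0.01 ± 0.10, adjusted p = 0.968). Its values did not overlap in TPM, yet the scaled counts of both groups were level. L36 AT3G53740 rose by 0.41 ± 0.09 on the log2 scale at day (adjusted p = 0.0101, edgeR), while AT5G02450, at 88.4% identity, had -0.03 ± 0.15 (adjusted p = 0.924). In AT5G02450 too the first WT library at day was the highest, with 513, 476 and 462 TPM in *bou-2*, against 589.9, 392 and 389.8 TPM in the WT. The difference between 2 paralogs in their response was not tested.

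The plastid members were lower in *bou-2* where they were called. No plastid member was higher in *bou-2* at an adjusted p under 0.05. At day 18 of 34 were lower, with a median log2 fold change of -0.51, and at night 22 were lower, with a median of -0.65 (edgeR), against the 12.8% and 12.2% of all genes called lower at day and night. Among the 1563 genes that reach 100 TPM in the WT, the shares called lower were larger, with 22.9% at day and 26.2% at night. The fitted fold change was negative for 32 of 34 at each time. Of the 22 genes of the large subunit, 12 were lower at day and 13 at night, and of the 12 of the small subunit 6 at day and 9 at night. At night the *bou-2* libraries lay below the WT libraries in TPM for 30 of 34, a pattern found for 19.2% of all genes, and at day for 18, against 12.9%. Of the 1563 genes that reach 100 TPM in the WT, 555 had this pattern at night and 336 at day. Of the 20 plastid members whose compartment is stated, 12 fell at day and 13 at night. The day count of 18 was 3 with only the 6 libraries compared in the fit. With single libraries left out it was 7 without the third and 10 without the first *bou-2* library, and 9 without the third WT library.

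Plastid L13 (AT1G78630), whose loss arrests embryos, had 329, 301 and 268 TPM in *bou-2*, against 538, 440.3 and 627 TPM in the WT at day and 334, 331 and 302 TPM in *bou-2*, against 577, 587 and 521 TPM in the WT at night. Its log2 fold changes were -0.94 ± 0.16 (adjusted p = 0.00212, edgeR) and -0.91 ± 0.16 (adjusted p = 0.00248), and the groups were separate at both times. Plastid L15 (AT3G25920) had 306, 293 and 269 TPM in *bou-2*, against 471, 392 and 597 TPM in the WT at day (-0.85 ± 0.17, adjusted p = 0.00524) and 325, 329 and 296 TPM in *bou-2*, against 521, 578 and 484 TPM in the WT at night (-0.85 ± 0.17, adjusted p = 0.00530, edgeR). Plastid L34 (AT1G29070) had 288, 304 and 272 TPM in *bou-2*, against 528, 556 and 426 TPM in the WT at night, a log2 fold change of -0.92 ± 0.18 (adjusted p = 0.00449, edgeR). Plastid S9 (AT1G74970), S1 (AT5G30510), L9 (AT3G44890) and L11 (AT1G32990) were lower at both times. S9 had -0.82 ± 0.16 at day (adjusted p = 0.00436) and -0.86 ± 0.16 at night (adjusted p = 0.00346). S1, a protein that contacts mRNA in bacterial ribosomes, had -0.75 ± 0.16 (adjusted p = 0.00748, edgeR) and -0.71 ± 0.16 (adjusted p = 0.00931). L9 had -0.76 ± 0.15 and -0.85 ± 0.15, and L11, on the stalk base of the large subunit, had -0.68 ± 0.17 and -0.81 ± 0.17. The most abundant plastid member, *PSRP5*, which has no bacterial counterpart, had 581, 623 and 589 TPM in *bou-2*, against 912, 959.5 and 801 TPM in the WT at night (-0.69 ± 0.16, adjusted p = 0.0121, edgeR).

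Further plastid members that were lower at both times were L6 (AT1G05190), with -0.57 ± 0.16 at day and -0.72 ± 0.16 at night, S20 (AT3G15190), with -0.66 ± 0.18 and -0.81 ± 0.18, S13 (AT5G14320), with -0.71 ± 0.16 and -0.66 ± 0.16, and the plastid-specific *PSRP4* (AT2G38140), with -0.62 ± 0.15 and -0.70 ± 0.15. S5 (AT2G33800) was lower at night (-0.75 ± 0.17, adjusted p = 0.00833, edgeR) and had -0.48 ± 0.17 at day without a call (adjusted p = 0.0596). L10 (AT5G13510), the stalk base protein of the plastid ribosome, was lower at day (-0.52 ± 0.16, adjusted p = 0.0384, edgeR) and had -0.45 ± 0.16 at night without a call (adjusted p = 0.0642). These 6 genes were chosen after their values were seen.

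The size of the difference varied among the plastid genes. The 2 members for L12 of the stalk, AT3G27830 and AT3G27850, had log2 fold changes of -0.09 ± 0.16 and -0.11 ± 0.17 at day and -0.26 ± 0.16 and -0.45 ± 0.17 at night, without a call. L27 (AT5G40950) had -0.32 ± 0.14 and -0.19 ± 0.14, and *PSRP3* (AT1G68590) had -0.07 ± 0.15 and -0.20 ± 0.15, also without a call. The 2 members with positive values at both times were *rpl32* (ATCG01020), the only member encoded in the plastid genome, and the PSRP1-like gene AT5G24490. *rpl32* had 237, 367 and 318 TPM in *bou-2*, against 148, 207 and 206 TPM in the WT at day and 284, 222 and 230.1 TPM in *bou-2*, against 132, 223 and 289 TPM in the WT at night, with log2 fold changes of 0.55 ± 0.30 (adjusted p = 0.211, edgeR) and 0.08 ± 0.30 (adjusted p = 0.890). Transcripts of the organelle genomes as a group varied between libraries from 1373 to 5106 TPM, and their part in the value of *rpl32* was not tested. The PSRP1-like gene, related to the plastid factor that keeps ribosomes inactive, had 153, 149 and 135 TPM in *bou-2*, against 111, 108 and 107 TPM in the WT at night (0.32 ± 0.15, adjusted p = 0.160). The genes for L12, L27, *PSRP3* and *rpl32* were chosen after their values were seen.

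**Figure D4:**
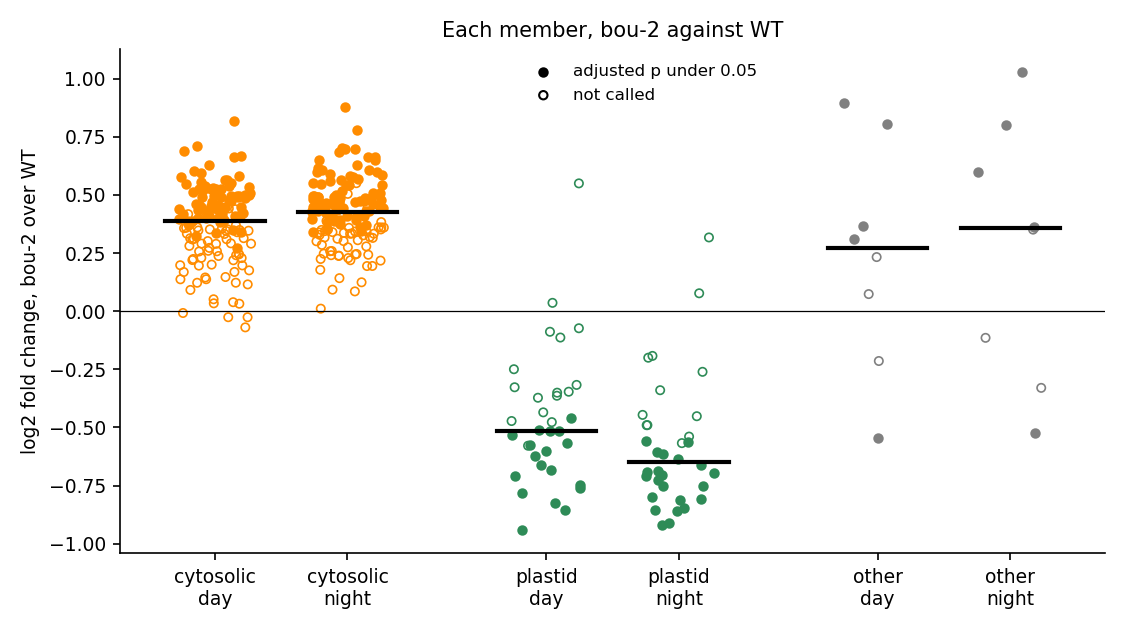
Log2 fold change of *bou-2* over WT (y axis) of each member at day and at night (x axis), for cytosolic, plastid and other members. Filled points passed an adjusted p of 0.05 in the edgeR test, open points did not, and bars are medians (0.39 and 0.43 for cytosolic, -0.51 and -0.65 for plastid members). All called cytosolic members lay above 0 and all called plastid members below it.

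In the group of 8 remaining members, the largest fitted rise of the 184 members at each time was that of a SNU13-like gene, AT4G12600 at day and AT5G20160 at night. Both are relatives of a yeast protein that binds the box C/D RNAs guiding rRNA methylation. AT4G12600 had 214, 215 and 253 TPM in *bou-2*, against 97.6, 135 and 105 TPM in the WT at day (0.90 ± 0.15, adjusted p = 0.00213, edgeR) and 0.80 ± 0.15 at night (adjusted p = 0.00372). AT5G20160 had 270.0, 254 and 317 TPM in *bou-2*, against 133, 135 and 114 TPM in the WT at night (1.03 ± 0.14, adjusted p = 0.000805, edgeR) and 0.80 ± 0.14 at day (adjusted p = 0.00278). eEF2 (AT1G56070), the factor that moves the ribosome along the mRNA, was higher both at day (0.37 ± 0.11, adjusted p = 0.0371) and at night (0.60 ± 0.11, adjusted p = 0.00365), as was the eEF1B subunit AT1G30230 (0.31 ± 0.08 and 0.36 ± 0.08). The second eEF1B gene, AT5G19510, had 0.23 ± 0.12 and 0.35 ± 0.12 without a call. *SSR16* (AT4G34620), the second most abundant member in the WT, had 967, 928 and 908 TPM in *bou-2*, against 1244, 1297 and 1177 TPM in the WT at night (-0.52 ± 0.15, adjusted p = 0.0255, edgeR) and 953, 1067 and 971 TPM in *bou-2*, against 992, 956 and 1233 TPM in the WT at day (-0.21 ± 0.15, adjusted p = 0.328). The L18ae-like gene AT3G14595, for which no role is given here, was lower at day (-0.54 ± 0.11, adjusted p = 0.00561) and had -0.11 ± 0.11 at night.

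Few members were called between day and night. In *bou-2*, 1 of 184 was higher at day and none lower, while 7.68% of all genes were called higher and 7.69% lower. Among the genes that reach 100 TPM in the WT, 13.3% were higher and 3.77% lower. In the WT no member was called in either direction, while 5.58% of all genes were called higher and 3.88% lower (edgeR), with 10.4% and 4.16% among those that reach 100 TPM. In the WT 14 of 184 members, all of them cytosolic, had an unadjusted p under 0.05 (edgeR), against 4879 of all 20458 genes tested. DESeq2 called 4 members higher and 1 lower in the WT. The median log2 fold change of day over night was 0.07 in *bou-2* and 0.08 in the WT over the 184 members. On the TPM scale these medians changed sign, since that scale moves the median of all genes by -0.14 in *bou-2* and -0.13 in the WT (log2(TPM + 0.1), limma), so no direction is given. The one call was the ClpS-like gene AT1G68660, an adaptor family of the Clp protease, with 174, 188 and 212 TPM at day and 149, 156 and 148 TPM at night in *bou-2*. Its log2 fold change was 0.46 ± 0.12 (adjusted p = 0.0314, edgeR) and the libraries were separate. The call was lost without any one of the *bou-2* libraries except the first at day.

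The effect of *bou-2* was also not called as different between day and night for any member. The smallest adjusted p was 0.224 (edgeR, interaction of genotype and time), and DESeq2 called none. An unadjusted p under 0.05 in the edgeR test was found for 4 of the 184 members, against 3383 of all 20458 genes tested. Among all genes 0.538% were called higher and 0.645% lower in this test, and 0.96% and 0.256% among those that reach 100 TPM. A call at one time and not at the other, as for S28 or S12, is therefore no evidence of a difference between the times. In all, 62 members were higher and 17 lower at both times, which is 33.7% and 9.24% of the 184, while 8.60% of all genes tested were higher and 6.53% lower at both times, and 11.8% and 16.6% of those that reach 100 TPM in the WT. Fold changes at day and night lay within 0.25 of each other on the log2 scale for 159 members (86.4%), for 46.7% of all genes and for 60.9% of those that reach 100 TPM. Each time has its own WT and *bou-2* libraries, but all 6 WT libraries also chose the members.

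**Figure D5:**
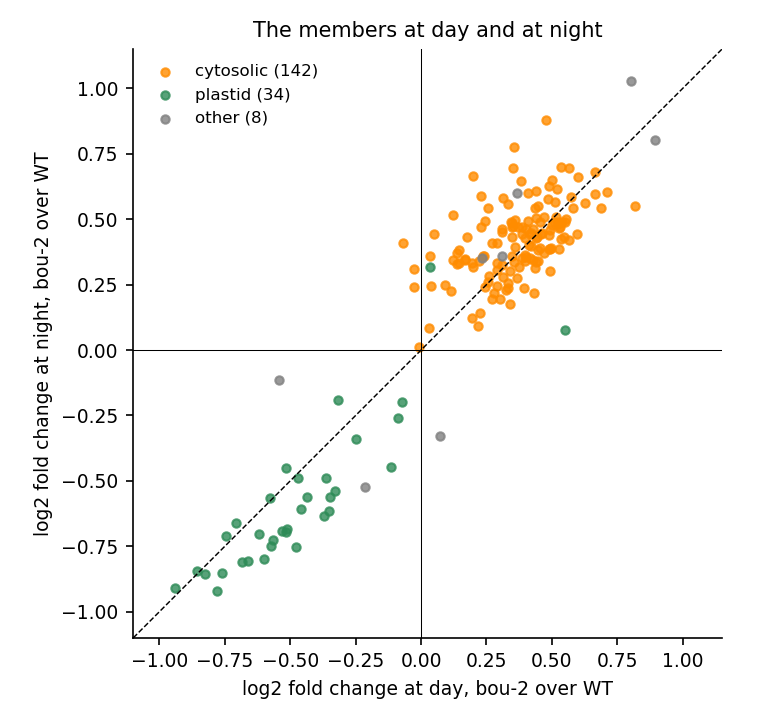
Log2 fold change of *bou-2* over WT at day (x axis) and at night (y axis) for the 184 members, coloured by compartment. The dashed line marks equal values and the solid lines mark 0. Nearly all cytosolic members lay in the upper right and nearly all plastid members in the lower left, with medians of 0.39 and 0.43 for cytosolic and -0.51 and -0.65 for plastid members.

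Beside the members, the table holds 182 ribosomal protein loci under the limit, of which 151 were tested. Of these, 65 rose and 1 fell at day in the mutant, with a median log2 fold change of 0.41, while 57 rose and 1 fell at night, with a median of 0.30. The 17 tested loci placed in the mitochondrion, by annotation or by a locus in its genome, counted 7 higher at day and 6 at night, and none lower. The 21 tested loci of low level placed in the plastid, by annotation or by a locus in its genome, counted 2 higher at day and 1 at night. Both counts are below the share of all genes called higher. None was lower, and the medians were 0.20 and -0.10. Nuclear loci and any loci of the organelle genomes were not separated in these 2 sets. The largest fold changes belonged to loci at low level. The locus AT1G36240 averaged 2.88 TPM in *bou-2* and 0.0585 TPM in the WT at day. The gene AT5G39850, annotated as S4, averaged 29.5 ± 4.37 TPM in *bou-2* and 7.34 ± 0.678 TPM in the WT at night (SD, n = 3 each), a log2 fold change of 1.89 ± 0.24 (adjusted p = 0.000536, edgeR). The P0-related gene AT2G40010, annotated as L10 family, averaged 26.0 ± 3.03 TPM in *bou-2* and 9.85 ± 2.06 TPM in the WT at day, a log2 fold change of 1.30 ± 0.19 (adjusted p = 0.00108).

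Ribosome assembly runs through nucleolar proteins that fold, modify and cleave the rRNA. Of 31 listed ribosome biogenesis genes, 22 were higher at day and 29 at night, and none was lower, with median log2 fold changes of 0.65 and 0.82. Nucleolin *NUC-L1* (AT1G48920), which organizes rDNA in the nucleolus, averaged 257 ± 36.0 TPM in *bou-2* and 116 ± 21.4 TPM in the WT at day (SD, n = 3 each), with a log2 fold change of 1.05 ± 0.15 (adjusted p = 0.000858, edgeR), and 1.07 ± 0.15 at night. The rRNA methyltransferase fibrillarin *FIB2* (AT4G25630) had 1.26 ± 0.23 at day and 1.41 ± 0.23 at night (adjusted p = 0.00301 and 0.00164). *NUC-L2* (AT3G18610), the second nucleolin, averaged 5.63 ± 1.56 TPM in *bou-2* and 1.57 ± 0.246 TPM in the WT at night (1.74 ± 0.28, adjusted p = 0.00153, edgeR). *NOP56* (AT1G56110), a core protein of the same box C/D particles, had 1.07 ± 0.14 and 1.06 ± 0.14 (adjusted p = 0.000609 and 0.000721, edgeR).

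Of 22 cytosolic translation factors, 10 rose and 2 fell at day, while 14 rose and none fell at night, with medians of 0.26 and 0.49. Of the 4 listed genes for eEF1A, which brings aminoacyl-tRNA to the ribosome, AT1G07920 averaged 899 ± 77.5 TPM in *bou-2* and 494 ± 75.2 TPM in the WT at day (0.77 ± 0.13, adjusted p = 0.00237, edgeR). The helicase *EIF4A-2* (AT1G54270) was higher at night (0.80 ± 0.09, adjusted p = 0.000307). The factors that were lower at day were *ELF5A-1* (AT1G13950, -0.62 ± 0.14, adjusted p = 0.0116) and the eEF1B subunit AT5G12110 (-0.75 ± 0.24, adjusted p = 0.0413). All 3 genes for RACK1, the scaffold protein on the small subunit, were higher at both times, with AT1G18080 at 0.60 ± 0.14 at day and 0.56 ± 0.14 at night (adjusted p = 0.0122 and 0.0167, edgeR). None of the 7 genes of the TOR pathway was called between *bou-2* and WT, with medians of -0.05 at day and 0.07 at night. Of 3 plastid translation factors, the elongation factor G gene *SCO1* (AT1G62750) was lower at night (-0.41 ± 0.13, adjusted p = 0.0444, edgeR), and none was called at day. These lists overlap with the members in eEF2 and the eEF1B genes AT1G30230 and AT5G19510.

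The listed markers of other cell states were read in the same libraries. The 6 markers of dividing cells, which are rich in ribosomes, summed to 25.7 to 44.6 TPM in *bou-2* and 34.5 to 58.9 TPM in the WT at day, and to 28.3 to 36.1 TPM in *bou-2* and 45.8 to 63.8 TPM in the WT at night. Of these, 1 was lower at day and 3 at night and none was higher. The flower markers *AG*, *AP3*, *PI* and *SEP3* summed to at most 1.97 TPM in any library. The meristem markers *STM*, *KNAT1* and *WUS* summed to 0.766 to 10.1 TPM in *bou-2* and 2.21 to 11.5 TPM in the WT at day and 0.888 to 10.5 TPM in *bou-2* and 0.273 to 5.07 TPM in the WT at night, without a call. The 3 markers of senescence (*SAG12*, *SAG13*, *SEN1*) summed to 108 to 259 TPM in *bou-2* and 17.8 to 262 TPM in the WT at day, where the groups overlapped. At night they summed to 128 to 245 TPM in *bou-2* and 42.9 to 59.8 TPM in the WT. Of these, *SEN1* was higher at both times (2.44 ± 0.70 at day, adjusted p = 0.0290, and 2.46 ± 0.72 at night, adjusted p = 0.0315, edgeR). *SAG12* and *SAG13* were not called at either time, and *SAG12* averaged 0.0482 TPM in *bou-2* and 1.63 TPM in the WT at day. The mesophyll markers given above were lower in *bou-2* at the same times as the plastid members. The part of these cell states in the differences of the members was not tested.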

How the data were processed

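RNA was sequenced from 12 libraries, 3 for each combination of *bou-2* or WT with day or night, as 150 bp paired reads with 12 libraries per lane. Per the labels and the study's methods, the authors assigned reads to the TAIR10 transcriptome with kallisto 0.43.0, so that the deposited estimated counts are raw and not whole for each transcript. The deposited TPM were scaled by the authors, with kallisto, by transcript length and to one total per library, and their group means and standard deviations were not used. The deposited q-values of the authors, from sleuth 0.28.1, and their deposited log2 ratios of mean TPM hold the study's own comparisons and were not used.

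Of 41415 lines, 23 repeated transcripts were dropped. Estimated counts were rounded and fitted with the edgeR 4.0.16 quasi-likelihood test (R 4.3.3) over all 12 libraries, with TMM scaling and a filter of 10 counts (total 15, proportion 0.7), which kept 26153 transcripts. P-values were Benjamini-Hochberg adjusted over these, and a transcript was called at an adjusted p under 0.05. Standard errors are the log2 fold change divided by the square root of the F statistic. Counts over all genes use 1 transcript per gene, 20458 in all. Families were fitted in the same way after summing the counts of their members, with the rest of the table kept. The biological coefficient of variation was 28.4%. The fit was also run on simulated counts with known changes. Those changes were larger than the ones of nearly all members, so the run does not tell how the fit does at their size. Differences of 2 groups use their own libraries but share 1 estimate of the spread. Library depth was 15911356 to 33046562 estimated counts, and the median estimated count of a member was 5084.

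The members and gene lists were chosen with earlier results of these data known. Named members were the 8 highest in the WT, the 6 largest called rises and falls of each comparison with separate libraries, up to 6 called plastid members per comparison and direction, the 3 loci on each side of the limit, paralog pairs with one called and the other of opposite sign, a function list of 17 loci (14 of them members), any member called in the genotype by time interaction, and up to 4 called genes of each other list. Markers and genes named for their function follow lists, and exceptions are stated where they occur. Compartments not stated by annotation were assigned by protein family. Promoter sequences were read from RefSeq TAIR10.1. Alternatives were DESeq2 1.42.0, limma 3.58.1 on log2(TPM + 1) and log2(TPM + 0.1), other scaling, filters, limits and thresholds, a replicate block, and each library left out. Where reads are shared between near-identical copies, kallisto splits them by estimate.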

Additional observations from a re-analysis of the deposited data

How the results depend on the processing

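Of 61 calls of named members, each under 24 alternatives, none reversed, and 163 of 1464 values fell short of the threshold. These values include fits without a library of a group not compared, and the stricter threshold of 0.01, which cannot reverse a sign. Many of the calls belong to members named for the largest called changes with separate libraries. A reversal was therefore unlikely from the start, and its absence says little about the other members. Of the 61 calls, 17 fell short with only the libraries compared and 31 at an adjusted p under 0.01 (edgeR). With only the libraries compared in the fit, 22 members rose and 4 fell in *bou-2* at day (cytosol 20 higher, plastid 3 lower). At an adjusted p under 0.01 the day counts were 21 higher and 6 lower (cytosol 19 higher, plastid 5 lower), and the night counts 30 higher and 14 lower (cytosol 26 higher, plastid 14 lower). With limma on log2(TPM + 1) and on log2(TPM + 0.1) alike, 118 members were higher at day and 137 at night (cytosol 114 and 131). With no minimum of TPM, 140 ribosomal protein loci were higher at day and 145 at night. With compartments stated, chosen after seeing the data, 11 cytosolic members were higher at day and 11 at night, and 13 plastid members were lower at night. These sets hold fewer or more loci by construction. For other shifts the cause was not tested.

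Leaving out 1 library at a time gave 38 to 97 members higher and 8 to 25 lower at day (cytosol 34 to 93 higher, plastid 7 to 24 lower), and 36 to 108 higher and 17 to 27 lower at night (cytosol 32 to 103 higher, plastid 17 to 26 lower). Without the second *bou-2* library at day 38 members were higher, and without the first WT library at day 49. At day 11 were lower without *bou-2* replicate 1, 8 without *bou-2* replicate 3 and 10 without WT replicate 3. At night 49, 55 and 36 were higher without *bou-2* replicate 1, 2 and 3, and 51 without WT replicate 3. The ratios of summed TPM ran from 1.23 to 1.26 at day and from 1.19 to 1.30 at night for all members. For cytosolic members they ran from 1.36 to 1.40 and from 1.33 to 1.48, and for plastid members from 0.716 to 0.855 and from 0.692 to 0.748. A ratio has no threshold, so its range cannot be set against that of a count.

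Between day and night in *bou-2*, the 1 higher member became 2 with only the libraries compared, 2 with DESeq2, 2 at a limit of 50 TPM, 8 with no minimum of TPM, 0 with limma on log2(TPM + 0.1), 0 at an adjusted p under 0.01 and 0 at a limit of 200 TPM, and 0 to 1 without 1 library. The 0 lower members became 1 with only the libraries compared, 3 with limma on log2(TPM + 1), 3 on log2(TPM + 0.1), 1 at a limit of 50 TPM and 1 with no minimum of TPM, and 0 to 1 without 1 library. In the WT, the 0 higher members became 4 with DESeq2, 1 with counts summed per gene, 1 with the limit set on *bou-2*, 2 at a limit of 50 TPM and 4 with no minimum of TPM, and 0 to 5 without 1 library. The 0 lower members became 2 with limma on log2(TPM + 1), 2 on log2(TPM + 0.1) and 1 with DESeq2, and 0 to 1 without 1 library. The interaction had 0 to 1 member higher and 0 lower without 1 library.

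With the replicate number as a block, 59 members were higher and 12 lower at day (plastid 11 lower), and 78 higher and 19 lower at night. The labels link libraries of different groups only by this number. For libraries of the same number, the correlations of their deviations from the group means ran from -0.09 to 0.07. Such values do not show that these libraries shared nothing else.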
